A study of Mus musculus with 2 samples.

Results

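Rab GTPases are the small GTPases that direct vesicles between the membranes of a cell, and 59 of the 43346 genes measured in mouse embryonic heart belonged to this set. They were chosen by name: a gene entered if its identifier mapped to a symbol made of Rab, a number and at most 1 letter. The choice used names, but the set was drawn up with the levels and the differences between the libraries in view, so both are given as descriptions without a test. A further 4 genes with Rab names (an antisense or pseudogene suffix) fell outside the rule.

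A Rab protein switches between a GTP-bound form that recruits effectors to a membrane and a GDP-bound form that is taken back into the cytosol. Exchange factors load GTP, GTPase-activating proteins speed its hydrolysis, and GDP dissociation inhibitors carry the lipid-modified protein through the cytosol. Each compartment has its own members: Rab1, Rab2 and Rab6 act between the endoplasmic reticulum and the Golgi apparatus, Rab5 at early endosomes, Rab7 at late endosomes and lysosomes, Rab11 at recycling endosomes, and Rab3 and Rab27 at secretory vesicles. In heart muscle, endosomal recycling by such proteins returns receptors, ion channels and transporters to the cell surface.

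The samples were whole hearts of B6NCrl mouse embryos, an inbred C57BL/6 strain, at embryonic day 14.5, with no treatment or engineered allele given. There was 1 group of 2 libraries: biological replicate 2 came from a heart collected on day 17 of the month and biological replicate 1 from a heart collected on day 15. Each library was made from 10 ng of total RNA of a single heart, although the sex label of both reads as a pool of males and females. Embryo, collection day and library differ together, so their shares in any difference cannot be told apart.

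Gene counts summed to 2.79e+07 in replicate 2 and 2.75e+07 in replicate 1. The heart identity held: all 7 cardiomyocyte markers were above 1 TPM (transcripts per 1e+06, a level corrected for transcript length) in both libraries, with cardiac troponin T (Tnnt2) at 5706 TPM in replicate 2 against 6128 TPM in replicate 1. Markers of blood, nerve and epithelium differed between the libraries. The 7 erythroid markers summed to 32892 TPM in replicate 2 against 58897.5 TPM in replicate 1, and 7 of 7 were lower in replicate 2. The 7 neuron markers summed to 17.5 TPM in replicate 2 against 6.33 TPM in replicate 1, and the 7 epithelial markers to 31.05 TPM in replicate 2 against 21.1 TPM in replicate 1, with 7 of 7 higher in replicate 2 in both lists. In whole tissue, fewer cells of a type and less RNA per cell cannot be told apart.

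A Rab protein is anchored by geranylgeranyl lipids on cysteines at its carboxy terminus, and the coding ends below show where these codons lie in the most abundant members of several compartments and in Rab13. The sequences are the last 33 bases of the coding sequence, stop codon included, from GENCODE M21 transcripts (GRCm38), and capitals mark cysteine codons (TGC or TGT, read in frame).
Rab11a: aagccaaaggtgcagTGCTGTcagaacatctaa
Rab11b: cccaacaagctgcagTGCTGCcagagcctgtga
Rab2a: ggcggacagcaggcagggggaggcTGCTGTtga
Rab7: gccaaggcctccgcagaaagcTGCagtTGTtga
Rab1b: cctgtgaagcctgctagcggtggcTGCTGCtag
Rab1a: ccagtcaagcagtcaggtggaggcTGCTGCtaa
Rab14: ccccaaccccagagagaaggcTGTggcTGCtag
Rab6a: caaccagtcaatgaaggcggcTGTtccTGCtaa
Rab8a: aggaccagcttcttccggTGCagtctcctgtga
Rab13: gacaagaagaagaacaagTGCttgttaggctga
The ends fall into visibly different arrangements. Rab1a, Rab1b and Rab2a end on a cysteine pair directly before the stop codon, Rab6a, Rab7 and Rab14 have another codon between their cysteines, and Rab8a and Rab13 have a single cysteine. In Rab11a and Rab11b further codons follow the pair.

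Within the last 4 codons before the stop, 58 of the 59 members had at least 1 cysteine codon and 44 had 2 or more. Among 21523 protein-coding genes with a complete coding sequence, 10.6% had at least 1 such codon there and 1.35% had 2 or more. Cysteines at the second and last of these 4 codons were the most frequent arrangement (20 members), followed by a final pair (15 members). Within the 4 codons, a cysteine at the first alone was found in 14 members, a pair at the first 2 places in 6 and a pair in the middle in 3. Some of the 14, such as Rab11a, Rab11b and Rab30, have another cysteine codon directly before these 4 and so carry a pair. The leading Rab18 transcript model had no cysteine among its last 4 codons. The median coding sequence had 215 codons, the shortest (Rab7b) 157 and the longest (Rab44) 725.

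The switch II stretch is part of the nucleotide-binding fold that changes shape with the bound nucleotide. A fixed run of its amino acids, coded by 21 bases, was searched for in frame. This run was found in 49 of the 59 members and in 0.288% of the 21523 genes. The search allowed no change of amino acid, so a member without the match may still have a switch II stretch. The match is shown for the Rab5, Rab1 and Rab11 paralogs. Its amino acids are the same in all of them because the search required it, while the transcripts can still be told apart. Capitals mark bases that differ within each paralog set.
Rab5a: tgggaTacAgctggTcaAgaA
Rab5b: tgggaCacTgctggGcaGgaG
Rab5c: tgggaCacAgctggCcaAgaG
Rab1a: tgggacacagcAggCcaggaA
Rab1b: tgggacacagcTggTcaggaG
Rab11a: tgggacacAgcAggGcaggag
Rab11b: tgggacacTgcTggCcaggag
Of the 21 bases, 5 varied among the Rab5 genes, 3 between the Rab1 genes and 3 between the Rab11 genes. Each lay at the last base of its codon, the only place where the search allowed bases to vary. Over the whole coding sequence, the paralog pairs described below were identical at 59.8% (Rab21 and Rab22a) to 79.3% (Rab8a and Rab8b) of aligned bases.

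Most of the family was expressed in the embryonic heart. Both libraries had 49 of the 59 members at 1 TPM or more (83.1%), against 31.5% of all genes and 56.8% of protein-coding genes. At least 10 TPM was reached by 31 members and at least 100 TPM by 7 members (11.9%, against 5.66% of protein-coding genes). The median level of the 59 members was 13.4 TPM in replicate 2 against 11.5 TPM in replicate 1. The replicate 1 median was the value of Rab5c, which had 23.9 TPM in replicate 2. The replicate 2 median was that of Rab2b, which had 13.1 TPM in replicate 1. The gap between the medians thus rests on the gene in the middle place and is no shift of the whole family. The median of the protein-coding genes was 3.33 TPM in replicate 2 against 3.09 TPM in replicate 1. Together the members took 0.236% of all TPM in replicate 2 and 0.228% in replicate 1. The 7 highest members held 59.7% of the family total in replicate 2 and 60.8% in replicate 1.

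**Figure D1:**
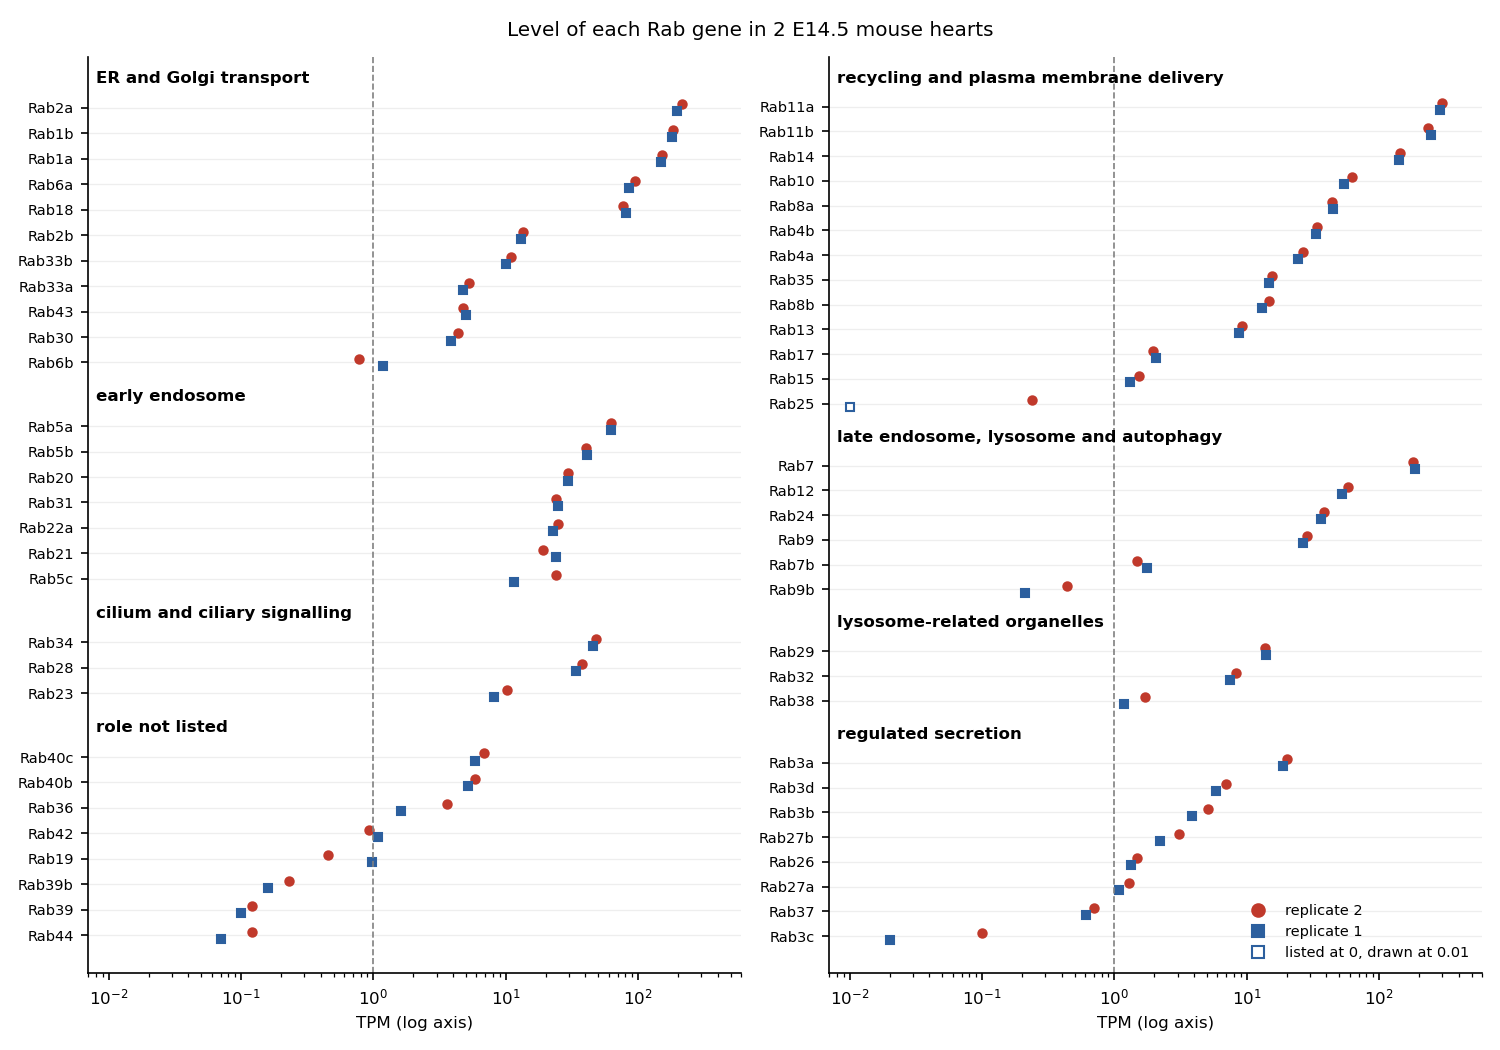
TPM (log axis) of each of the 59 Rab genes by compartment, with circles for replicate 2 and squares for replicate 1, the dashed line at 1 TPM and an open square for a gene listed at 0. The recycling genes Rab11a and Rab11b stand highest, the 7 early endosome genes lie within a narrow band, and the regulated secretion genes reach no higher than 20.04 TPM.

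Recycling endosomes and delivery to the plasma membrane took the largest share of the family, 37.6% in replicate 2 and 38.3% in replicate 1 over 13 members. Rab11a, which drives recycling from the pericentriolar endosome to the surface, was the highest Rab gene with 298.5 TPM in replicate 2 against 287.5 TPM in replicate 1 (293 ± 7.76 TPM, mean ± SD, n = 2). Its paralog Rab11b had 234 TPM in replicate 2 against 245 TPM in replicate 1 (239 ± 8.24 TPM, n = 2). The ranges of these paralogs did not overlap. Rab14, which works between the Golgi apparatus and endosomes, had 145 TPM in replicate 2 against 142 TPM in replicate 1. Rab10, which in fat cells moves the glucose transporter GLUT4 to the surface, had 62.2 TPM in replicate 2 against 54.7 TPM in replicate 1. Rab8a, an exocytic and ciliary member, had 44.5 TPM in replicate 2 against 45.0 TPM in replicate 1. Its protein-coding transcript Rab8a-201 held 18.1 TPM of this in replicate 2 and 18.5 TPM in replicate 1, and most of the rest was a short retained-intron form.

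The rest of the recycling and delivery group ran down to the detection limit. Rab4a and Rab4b, of the fast recycling route, and Rab35 and Rab8b lay between 13.0 and 33.8 TPM. Rab13, known from tight junctions of epithelia, had 9.16 TPM in replicate 2 against 8.81 TPM in replicate 1. Rab17, an epithelial member, had 1.97 TPM in replicate 2 against 2.07 TPM in replicate 1, but its counts went the other way (70 in replicate 2 and 56 in replicate 1). Rab15 had 1.54 TPM in replicate 2 against 1.31 TPM in replicate 1. Rab25, the epithelial paralog of Rab11, had 4 counts in replicate 2 and was listed at 0 in replicate 1. A count of 0 allows up to 3 counts, so no fold is given for it. Epithelial markers were higher in replicate 2 in 7 of 7 cases, though only Krt8 and Krt18 reached 1 TPM in both libraries. Nkx2-1 had 3 counts in replicate 2 and 0 in replicate 1. The part of epithelium in the Rab25 counts was not tested.

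Transport between the endoplasmic reticulum and the Golgi apparatus took 32.3% of the family in replicate 2 and 31.9% in replicate 1 over 11 members. Rab2a, which acts in retrograde and Golgi transport, had 216 TPM in replicate 2 against 197 TPM in replicate 1 (206 ± 13.3 TPM, n = 2). Rab1b and Rab1a, which act in the step from the endoplasmic reticulum to the Golgi apparatus, followed. Rab1b had 184 TPM in replicate 2 against 179 TPM in replicate 1. Rab1a had 152 TPM in replicate 2 against 148 TPM in replicate 1. Their order was the same in both hearts. Rab6a, of transport within and out of the Golgi apparatus, had 94.5 TPM in replicate 2 against 84.9 TPM in replicate 1. Rab18, found at the endoplasmic reticulum and on lipid droplets, had 77.5 TPM in replicate 2 against 80.8 TPM in replicate 1.

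The other members of that group were lower by a wide gap. Rab2b, Rab33b, Rab33a, Rab43 and Rab30 lay between 3.89 and 13.4 TPM. Rab6b, the brain-enriched paralog of Rab6a, was the lowest at 0.78 TPM in replicate 2 against 1.18 TPM in replicate 1. It crossed the 1 TPM line between the libraries and so did not count as detected in both.

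At early endosomes all 7 members exceeded 10 TPM in both libraries. Rab5a, the organiser of early endosome fusion, had 62.4 TPM in replicate 2 against 62.1 TPM in replicate 1. Rab5b had 40.3 TPM in replicate 2 against 41.2 TPM in replicate 1. Rab5c, the remaining Rab5 paralog, had 23.9 TPM in replicate 2 against 11.5 TPM in replicate 1, and is taken up with the differences below. Rab20, Rab31, Rab22a and Rab21 lay between 19.1 and 29.6 TPM. Among these, Rab22a had 24.8 TPM in replicate 2 against 22.6 TPM in replicate 1, while Rab31 had 23.8 TPM in replicate 2 against 24.7 TPM in replicate 1. Rab21, which escorts integrins, had 19.1 TPM in replicate 2 against 24.1 TPM in replicate 1. The order of Rab22a against Rab31, and of Rab21 against Rab22a, changed between the libraries.

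Late endosomes, lysosomes and autophagy were represented mainly by Rab7. Rab7, needed for fusion of late endosomes and autophagosomes with lysosomes, had 179.8 TPM in replicate 2 against 186 TPM in replicate 1 (183 ± 4.36 TPM, n = 2). Rab12, which acts in degradation of the transferrin receptor, had 57.8 TPM in replicate 2 against 52.8 TPM in replicate 1. Rab24, linked to autophagy, and Rab9, of transport from late endosomes to the Golgi apparatus, lay between 26.8 and 38.4 TPM. The second paralogs were scarce. Rab7b had 1.48 TPM in replicate 2 against 1.76 TPM in replicate 1, but its counts went the other way (66 in replicate 2 and 54 in replicate 1). Rab9b had 0.44 TPM in replicate 2 against 0.21 TPM in replicate 1, on 36 counts in replicate 2 and 17 counts in replicate 1.

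Lysosome-related organelles, such as melanosomes, have their own members. Rab29 had 13.9 TPM in both libraries. Rab32 had 8.24 TPM in replicate 2 against 7.45 TPM in replicate 1. Rab38, its paralog in pigment cells, had 1.70 TPM in replicate 2 against 1.18 TPM in replicate 1. The 7 melanocyte markers summed to 29.1 TPM in replicate 2 against 28.7 TPM in replicate 1. Most of this sum was Mitf, at 19.9 TPM in replicate 2 against 21.05 TPM in replicate 1. The list was mixed, with log2 differences above 0 in 3 markers and below 0 in 4. Dct had 158 counts in replicate 2 and 96 counts in replicate 1 (log2 0.66). The pigment enzyme Tyrp1 had 1 count in each library. The part of pigment cells in the Rab38 level was not tested.

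Members of the primary cilium, through which Hedgehog signals pass, were all detected. Rab34, needed to form certain cilia, had 48.5 TPM in replicate 2 against 45.4 TPM in replicate 1. Rab28 had 37.6 TPM in replicate 2 against 34.0 TPM in replicate 1. Rab23, a negative regulator of Hedgehog signalling in the mouse embryo, had 10.2 TPM in replicate 2 against 8.21 TPM in replicate 1.

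Regulated secretion held 1.65% of the family in replicate 2 and 1.49% in replicate 1 over 8 members. Rab3a, a regulator of synaptic and hormone vesicles, was the highest with 20.04 TPM in replicate 2 against 18.8 TPM in replicate 1. Rab3d, Rab3b and Rab27b lay between 2.23 and 7.02 TPM. Rab26, Rab27a and Rab37 stood close to 1 TPM. Rab26 had 1.48 TPM in replicate 2 against 1.34 TPM in replicate 1. Rab27a, which tethers lytic granules and melanosomes, had 1.28 TPM in replicate 2 against 1.08 TPM in replicate 1. Rab37 had 0.70 TPM in replicate 2 against 0.61 TPM in replicate 1. Rab3c, a neuronal member, had the lowest mean TPM of the family (0.060), on 18 counts in replicate 2 and 4 counts in replicate 1.

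Another 8 members were placed in no compartment, and they held 0.773% of the family in replicate 2 and 0.663% in replicate 1. Rab40c, which recruits a ubiquitin ligase, had 6.85 TPM in replicate 2 against 5.89 TPM in replicate 1, and Rab40b lay between 5.23 and 5.89 TPM. Rab36 had 3.62 TPM in replicate 2 against 1.61 TPM in replicate 1. Rab42 had 0.93 TPM in replicate 2 against 1.08 TPM in replicate 1. Rab19 had 0.45 TPM in replicate 2 against 0.97 TPM in replicate 1. The remaining members of this group were close to absent. Rab39b, Rab39 and Rab44, a large Rab with an EF-hand, stayed between 0.07 and 0.23 TPM.

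The ranking by TPM was distinct at the top and blurred further down. Of the 9 neighbouring places among the 10 highest members, 8 had ranges over the hearts that did not overlap, the exception being Rab7 and Rab1b. Over all 58 neighbouring places, 34 overlapped. Rab5a and Rab10, next to each other just below, also overlapped, as did Rab10 and Rab12. The order at the top depends on the correction for length. By counts Rab2a led with 9226 in replicate 2 and 8378 in replicate 1, and Rab11a had 6600 and 6101. The transcript Rab11a-208 held 103 TPM in replicate 2 and 93.3 TPM in replicate 1, below Rab11b-203 at 139.6 and 139.3 TPM.

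The hearts were close in most Rab genes and apart in a few. Of the 44 members with a mean count of at least 100, 3 were at least 1.5-fold apart (6.82%), where 1.92% of 11958 genes passed the same limits. Higher in replicate 2 were 2 of the 44 (1.31% of genes), and higher in replicate 1 was 1 (0.61% of genes). Folds are expected counts of replicate 2 over replicate 1 after TMM scaling (a correction for library composition), with exact 95% intervals that cover counting error only and not the difference between embryos. The median log2 difference of the 44 members was 0.058, with 28 members on the side of replicate 2 and 16 on that of replicate 1, and that of all genes was -0.0068. The SD of the log2 differences was 0.25 over the members and 0.32 over all genes. Without Rab5c it was 0.21.

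**Figure D2:**
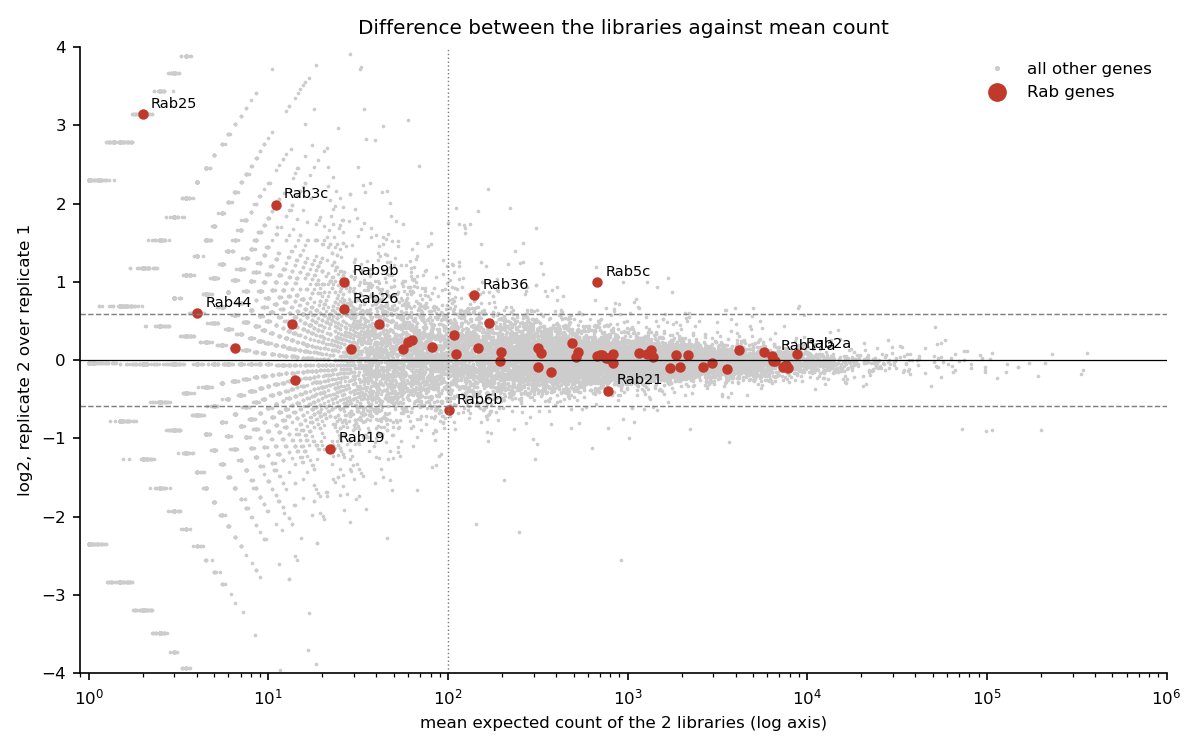
Log2 of replicate 2 over replicate 1 against the mean expected count (log axis), with Rab genes in red and all other genes in grey, dashed lines at 1.5-fold and a dotted line at a mean count of 100. Right of the dotted line 3 Rab genes lie beyond the dashed lines (Rab5c, Rab36 and Rab6b), and the position of Rab25 depends on the prior count added to its 0.

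Rab5c, an early endosome gene on the minus strand at chr11:100715009-100738215 (GRCm38), had 913 counts in replicate 2 and 438 counts in replicate 1. This was 2.00-fold higher in replicate 2 (counting interval 1.79 to 2.25; log2 1.00). It was the only member with at least 100 counts past 2-fold, a size reached by 0.426% of the 11958 genes. The genes around it lay near 0. Within 100 kb, Dnajc7, Nkiras2, Kat2a, Ghdc and Stat5b had log2 differences of -0.07 to 0.13, a comparison chosen after the Rab5c values were seen. A single transcript, Rab5c-202, held 98.9% of its TPM in replicate 2 and 100% in replicate 1, and Rab5c shared no 100-base word with another annotated gene. Its switch II bases, printed above, set it apart from Rab5a and Rab5b, which had log2 differences of -0.04 and -0.08. The spacing of the Rab5 genes differed between the hearts: Rab5c was 2.61-fold below Rab5a in replicate 2 and 5.38-fold below it in replicate 1.

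Rab36, a Golgi and lysosome positioning gene at chr10:75037058-75054748 on the plus strand, had 182 counts in replicate 2 and 98 counts in replicate 1. This was 1.78-fold higher in replicate 2 (counting interval 1.39 to 2.31; log2 0.83). Its neighbour Bcr, which begins within 100 kb, had a log2 difference of 0.04. In TPM the log2 difference of Rab36 was 1.17, larger than in counts, and its mix of transcripts also differed, as described below.

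Rab6b, at chr9:103111787-103185276 on the plus strand, had 81 counts in replicate 2 and 121 counts in replicate 1. It was 1.55-fold lower in replicate 2 (counting interval 1.16 to 2.09; log2 -0.63). Scaling by the ERCC spike-in RNAs brought it to -0.52, inside the 1.5-fold limit. The neuron markers went the other way, with 7 of 7 higher in replicate 2, and the part of nerve cells in the Rab6b level was not tested.

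Just short of the limit stood Rab27b and Rab21. Rab27b had 199 counts in replicate 2 and 138 counts in replicate 1 (log2 0.47). Rab21 had 691 counts in replicate 2 and 870 counts in replicate 1 (log2 -0.39). With the count limit lowered to 10, 7 of 56 members were 1.5-fold apart (12.5%, where 10.3% of genes were), which added Rab9b, Rab26, Rab3c and Rab19. Rab19, the member with the steepest fall among these, had 14 counts in replicate 2 and 30 counts in replicate 1. The counting interval of Rab26 (33 counts in replicate 2 and 20 counts in replicate 1) reached below 1.

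By compartment, the spans of the log2 differences varied. The widest were the 7 early endosome members at -0.39 to 1.00, with 5 below 0, and the 11 endoplasmic reticulum and Golgi members at -0.63 to 0.16, with 6 above 0. The 2 members of lysosome-related organelles with at least 100 counts lay at -0.08 and 0.10. The 3 ciliary members spanned 0.08 to 0.11. The 10 recycling and delivery members with at least 100 counts spanned -0.08 to 0.13, and the 4 late endosome members -0.10 to 0.07. All 4 regulated secretion members with at least 100 counts (Rab3a, Rab3b, Rab3d and Rab27b) lay above 0, with a median log2 of 0.27. So did all 3 ciliary members and all 3 members without a listed compartment that had such counts, and 48.1% of the 11958 genes lay above 0. The counting intervals of the members in these 3 groups included equal levels, except for Rab3d, Rab27b and Rab36. The neuron list was higher in replicate 2 as well, in 7 of 7 markers (17.5 TPM summed in replicate 2 and 6.33 TPM in replicate 1), with none at 0. Its part in the secretion genes was not tested.

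Paralogs of the same Rab were often far apart in level, and most pairs kept their direction between the hearts. Of 25 paralog pairs, 24 had a ratio in both libraries, 22 kept the same direction, 14 were at least 2-fold apart in both and 8 at least 4-fold apart in both. Rab7 stood 121-fold above Rab7b in replicate 2 and 106-fold in replicate 1. Rab6a stood 121-fold above Rab6b in replicate 2 and 72.0-fold in replicate 1. Rab2a stood 16.1-fold above Rab2b in replicate 2 and 15.1-fold in replicate 1. The second genes of these pairs had 0.78 to 13.4 TPM, and Rab6b among them did not reach 1 TPM in both libraries.

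Other pairs at least 4-fold apart included Rab9 over Rab9b (64.5-fold in replicate 2 and 128-fold in replicate 1) and Rab34 over Rab36 (13.4-fold in replicate 2 and 28.2-fold in replicate 1). Rab32 stood 4.85-fold above Rab38 in replicate 2 and 6.31-fold in replicate 1. Rab8a stood 4.86-fold above Rab13 in replicate 2 and 5.10-fold in replicate 1. This ratio rests largely on the short retained-intron form of Rab8a. The protein-coding Rab8a-201 had 18.1 TPM in replicate 2 and 18.5 TPM in replicate 1, beside 9.16 TPM and 8.81 TPM of the gene Rab13. Rab3a over Rab3c completes the group, resting on 18 counts of Rab3c in replicate 2 and 4 counts in replicate 1.

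Some paralogs were nearly even. Rab1b stood 1.21-fold above Rab1a in both libraries (log2 -0.28 for Rab1a over Rab1b in each). Rab11a stood 1.28-fold above Rab11b in replicate 2 and 1.17-fold in replicate 1. By counts, which are not corrected for length, Rab11b had more than Rab11a: 7272 against 6600 in replicate 2 and 7408 against 6101 in replicate 1. Rab4b stood 1.28-fold above Rab4a in replicate 2 and 1.36-fold in replicate 1.

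**Figure D3:**
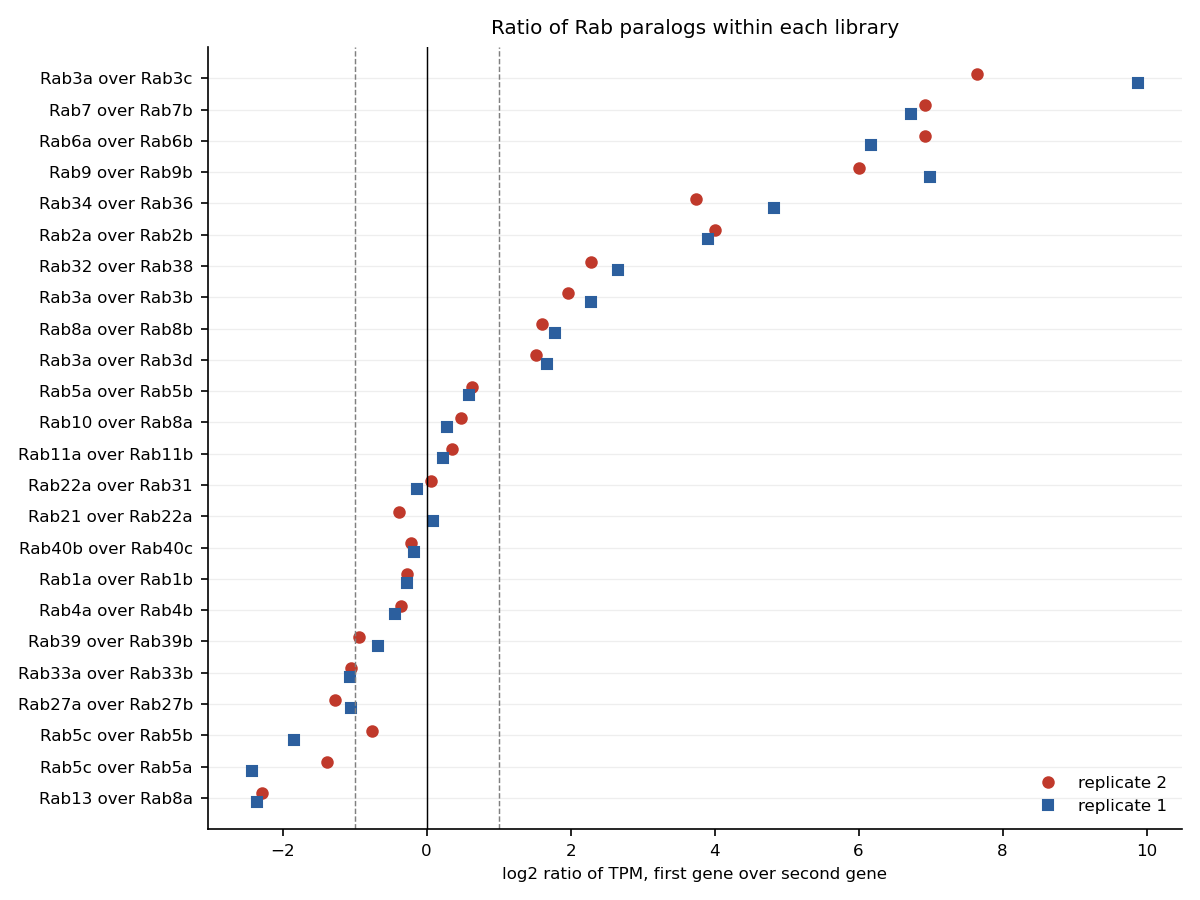
Log2 ratio of TPM of the first over the second gene of 24 paralog pairs, with circles for replicate 2 and squares for replicate 1, and dashed lines at 2-fold. Most pairs have both points on the same side of 0, and the 2 pairs with points on either side are Rab22a over Rab31 and Rab21 over Rab22a.

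Transcript tables split each gene into its annotated forms. Of the 49 detected members, 15 had a single transcript in the table and 34 had several. In 28 of the 34 the same transcript led in both libraries by TPM, and in 24 of these it made up 50% or more of the TPM of its gene in each heart.

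Rab6a has a pair of alternative coding exons of 106 bases each, known to give the protein forms Rab6A and Rab6A'. They are printed because the libraries separate them. The exon of Rab6a-201 lies at chr7:100629838-100629943 and that of Rab6a-202 at chr7:100629666-100629771 (plus strand, GRCm38, GENCODE M21), and capitals mark the bases that differ.
Rab6a-201: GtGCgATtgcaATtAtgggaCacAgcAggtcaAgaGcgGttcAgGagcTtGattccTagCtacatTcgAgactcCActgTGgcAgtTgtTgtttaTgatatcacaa
Rab6a-202: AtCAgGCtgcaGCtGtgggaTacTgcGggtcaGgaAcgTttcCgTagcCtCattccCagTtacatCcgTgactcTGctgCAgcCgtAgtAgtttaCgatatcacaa
The exons differed at 30 of 106 bases. Of 35 whole codons, 24 differed, and 3 of these code for another amino acid. Rab6a-201 held 66.5% of the gene's TPM in replicate 2 and 70.7% in replicate 1 (68.6% ± 2.92, SD, n = 2). Rab6a-202 held 32.3% in replicate 2 and 27.9% in replicate 1 (30.1% ± 3.12, n = 2). The transcripts also differ in the start of their first exon, so the split rests on both features. Both forms were present in both hearts, with the 201 form ahead in each.

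By TPM, Rab1a was divided almost evenly. Rab1a-202 held 35.1% of TPM in replicate 2 and 35.9% in replicate 1. Rab1a-201 held 33.6% in replicate 2 and 34.6% in replicate 1, and Rab1a-206 held 28.5% in replicate 2 and 27.5% in replicate 1. The order of these forms by TPM was the same in both hearts. By counts Rab1a-201 led, with 44.6% in replicate 2 and 45.9% in replicate 1, and Rab1a-202 held 18.8% in replicate 2 and 19.2% in replicate 1. Rab34, the ciliary member, had Rab34-201 at 47.8% of TPM in replicate 2 and 40.4% in replicate 1. Its Rab34-203 held 39.0% in replicate 2 and 36.1% in replicate 1. By counts Rab34-203 led in both, with 47.2% against 46.2% in replicate 2 and 44.7% against 40.1% in replicate 1. Rab2b-201 held 48.1% of Rab2b in replicate 2 and 37.0% in replicate 1.

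TPM gives short transcripts weight that counts do not. Rab8a-202, a retained-intron form of 542 nt, held 59.3% of Rab8a TPM in replicate 2 and 58.8% in replicate 1, but 12.7% of its counts in replicate 2 and 12.4% in replicate 1. The protein-coding Rab8a-201 held 87.3% of the counts in replicate 2 and 87.6% in replicate 1. Rab11a showed the same pattern. Rab11a-208, of 2336 nt, held 34.6% of TPM in replicate 2 and 32.5% in replicate 1, and the 462 nt Rab11a-206 held 33.5% in replicate 2 and 36.0% in replicate 1. By counts, Rab11a-208 led in both with 73.7% in replicate 2 and 71.6% in replicate 1.

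**Figure D4:**
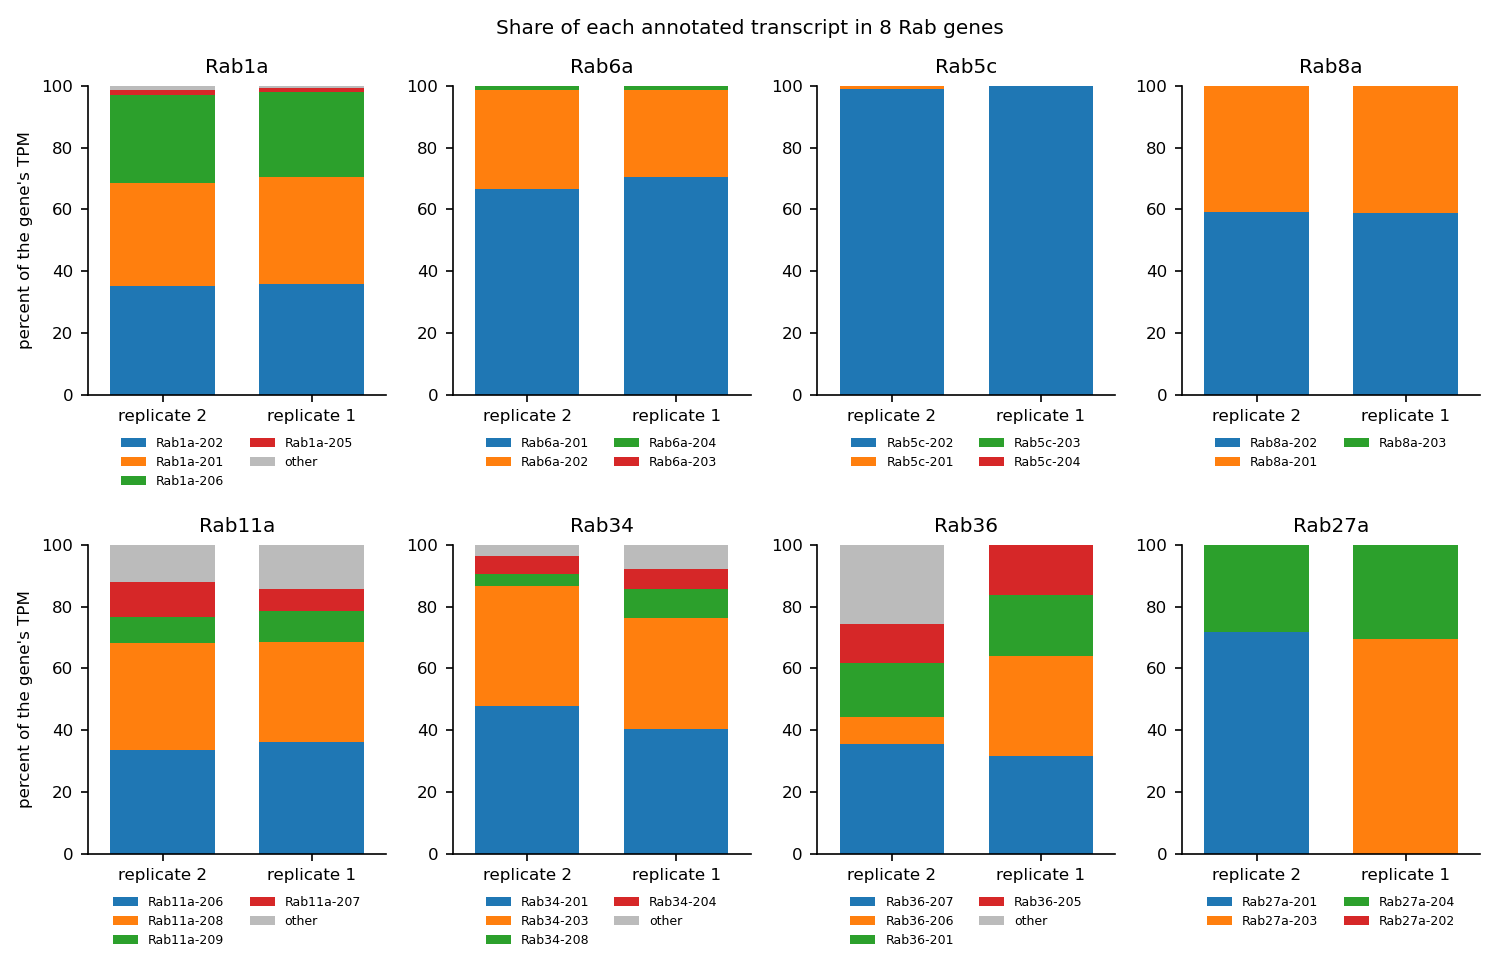
Percent of the gene's TPM held by each annotated transcript in 8 Rab genes, with replicate 2 in the left bar and replicate 1 in the right bar of each panel. Rab1a, Rab6a, Rab5c and Rab8a have nearly the same mix in both hearts, and Rab27a is led by Rab27a-201 in replicate 2 and by Rab27a-203 in replicate 1.

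The leading transcript by TPM differed between the hearts in 6 members, Rab11a, Rab17, Rab26, Rab27a, Rab29 and Rab36. Rab27a-201 held 71.9% in replicate 2 and was listed at 0 in replicate 1, where Rab27a-203 held 69.4%, on 60 counts of the gene in replicate 2 and 52 in replicate 1. Rab17-201 held 84.3% in replicate 2 and was listed at 0 in replicate 1, where Rab17-204 held 76.8%. These genes had under 100 counts. In Rab29 the 201 form held 42.8% in replicate 2 and 56.4% in replicate 1, and the 202 form 53.0% in replicate 2 and 41.2% in replicate 1. In Rab36 the 207 form held 35.4% in replicate 2 and 31.7% in replicate 1, and the 206 form 8.84% in replicate 2 and 32.3% in replicate 1. In Rab26, forms 201 and 203 were level at 34.0% in replicate 2, and the 203 form led with 70.1% in replicate 1, on fewer than 35 counts of the gene.

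Reads that could belong to another gene touch a minority of the members, among them abundant ones such as Rab11b, Rab7 and Rab6a. Counted as 100-base words of the annotated transcripts found in another gene on either strand, 36 members shared none and 42 shared under 1%. Another 9 shared at least 10%, led by Rab43 (73.8%, with Gm45140), Rab2b (52.0%, with Tox4 and Gm43766), Rab4b (49.3%, with the same-strand gene model Gm21983) and Rab24 (39.9%, with the opposite-strand gene Prelid1). Rab6a shared 16.4% with Mrpl48 and Rab11b 10.4% with a pseudogene and an opposite-strand transcript. The words come from GENCODE M21 and the counts from M4, so the counting could split reads only with named genes that M4 also holds. Gm21983 had 0 counts in both libraries. The posterior SD of the count in the deposited tables was at most 0.885% of the count in these 9 members, apart from Rab39b (4.06% in replicate 2 and 6.36% in replicate 1), and it was 0 in both libraries for Rab43 and Rab24. Whether counting used strand is not given. Prelid1, which overlaps Rab24, had 367 TPM in replicate 2 against 349.6 TPM in replicate 1, well above Rab24 itself.

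The promoters of 48 members were in the RefSeq promoter table (GRCm38), which covers 250 bases before to 50 after each start. CG dinucleotides, read on the plus strand and the same on the other, numbered 24.5 in the median of the 28 matched members at 10 TPM or more, 19 in the 13 members from 1 to under 10 TPM and 11 in the 7 members under 1 TPM. At least 10 CG were present in 27 of 28, 9 of 13 and 5 of 7 of these members, and in 43.9% of the 27025 genes of the table. Low levels did not go with CG-poor promoters in each case: Rab6b, at under 1.2 TPM, had 42 CG.

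Among the proteins that handle Rabs, geranylgeranyl transfer and its escort had 4 of 4 genes at 1 TPM or more in both libraries, where 56.8% of protein-coding genes reached that level. Rabggtb, the catalytic subunit of the transferase, had 51.4 TPM in replicate 2 against 49.1 TPM in replicate 1. Rabggta, its other subunit, had 15.0 TPM in replicate 2 against 15.2 TPM in replicate 1. The escort protein gene Chm had 10.1 TPM in replicate 2 against 9.23 TPM in replicate 1, and its paralog Chml lay between 5.52 and 5.70 TPM. Gdi2, a GDP dissociation inhibitor, had 181 TPM in replicate 2 against 167 TPM in replicate 1.

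Exchange factors were detected in 34 of 36 cases. Gapvd1, an exchange factor for Rab5, had 51.6 TPM in replicate 2 against 53.2 TPM in replicate 1. Dennd5a had 51.5 TPM in replicate 2 against 48.9 TPM in replicate 1, and Rab3ip, which activates Rab8, had 37.0 TPM in replicate 2 against 40.2 TPM in replicate 1. GTPase-activating proteins were detected in 32 of 37 cases. Rabgap1l had 74.7 TPM in replicate 2 against 63.7 TPM in replicate 1, Tbc1d7 had 55.3 TPM in replicate 2 against 51.5 TPM in replicate 1, and Evi5 had 38.8 TPM in replicate 2 against 35.5 TPM in replicate 1.

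Effectors were the least complete list, with 33 of 45 detected. Ehbp1l1 had 42.9 TPM in replicate 2 against 43.0 TPM in replicate 1, Osbpl1a had 39.1 TPM in replicate 2 against 40.0 TPM in replicate 1, and the dynein adaptor Bicd2 had 36.5 TPM in replicate 2 against 37.4 TPM in replicate 1. The 12 that did not reach 1 TPM in both libraries were Rab11fip1, Micall2, Rims1, Unc13d, Myrip, Sytl1, Mlph, Sytl5, Rims2, Sytl3, Rab11fip4 and Rph3a, and the first 2 of these reached it in a single library. The 3 genes for Rab phosphorylation and its removal (Lrrk1, Lrrk2 and Ppm1h) lay between 3.82 and 6.56 TPM. Over all 6 lists, Sytl4, a Rab27 effector on secretory granules, was the single gene with a mean count of at least 100 that was 1.5-fold apart. This made 1 of the 33 effectors with such counts, 0 of 32 exchange factors and 0 of 31 GTPase-activating proteins, where 1.92% of 11958 genes passed the same limits. Sytl4 had 206 counts in replicate 2 and 108 counts in replicate 1 (log2 0.87), while Rab27b stood at 0.47 and Rab27a at 0.15. A link between these genes was not tested.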

How the data were processed

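Total RNA of 2 whole hearts was sequenced, and the deposited tables list genes and transcripts for mm10 and GENCODE M4, per the submitters' deposited notes. The expected count per gene is an estimated count by the column name in the deposited tables, need not be whole, and is not scaled for depth. The percent of a gene's signal per transcript was also deposited by the authors, and was recomputed here from TPM and counts. The aligner, the quantification tool and strand use were not given in sources used here; the columns are named as in RSEM output. TPM were scaled by the authors over all rows, spike-ins included, and FPKM by the authors served as an alternative. Symbols, coordinates and transcript sequences were taken from GENCODE M21 (GRCm38, the assembly of the tables), and promoters from RefSeq. Members, lists and tests were chosen with earlier results of these data known. Named members were the 15 highest, the highest and lowest of each compartment, those past 1.5-fold, those from 0.5 to 2 TPM in mean, and those of wide or changing paralog pairs or leading transcripts. The neighbouring genes, cysteine codons, switch II codons, shared words, Rab6a exons and CG counts were chosen after values were seen.

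TMM factors (edgeR 4.0.16 in R 4.3.3) used each expected count rounded to a whole number, and log2 differences used a prior count of 0.5. Intervals are Clopper-Pearson at 95%, and a count of 0 allows up to 3 counts; both cover counting error only. With 2 libraries of 1 group no test between conditions exists. The fold calculation was tested on simulated data. Alternatives were DESeq2 1.42.0 size factors, total counts, ERCC totals, TPM ratios, posterior mean counts, a prior of 5, other thresholds and each library alone. Some items are not reported here.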

Additional observations from a re-analysis of the deposited data

Results flagged for a closer look

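Genes with Rab names that the symbol rule left out gave counts above the 3 that a count of 0 allows. Rab10os, an antisense transcript that overlaps Rab10, had 517 counts in replicate 2 and 435 counts in replicate 1 (13.2 TPM in replicate 2 and 11.5 TPM in replicate 1). Rab26os, on the strand opposite Rab26, had 45 counts in replicate 2 and 40 counts in replicate 1, beside 33 counts of Rab26 itself in replicate 2 and 20 counts in replicate 1. Rab11b-ps2, a processed pseudogene of Rab11b, had 38 counts in replicate 2 and 23 counts in replicate 1. Without knowledge of strand use, reads of a gene and its antisense partner cannot be told apart. Rab9b-ps1 was listed at 0 in both libraries.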

How the results depend on the processing

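No paired analysis was possible because both libraries belong to a single group. The median level of the members (13.2 TPM) was 11.5 to 13.4 TPM in either library alone, and the lower value was that of Rab5c in replicate 1. The number of members 1.5-fold apart (3) was 7 with a mean count of at least 10, 9 with any count, 5 at a lower fold limit and 1 at 2-fold, and 2 with ERCC scaling, which shifts all genes by 0.11 in log2 and puts the median of the Rab genes at 0.17. Leaving out Rab5c, chosen after seeing the data, gave a median of 0.056. TPM ratios, posterior mean counts and the prior of 5, added for the count of 1.5-fold members after seeing the data, each gave 3. Of the settings run on single differences, 119 of 120 left the member on its side of 1.5-fold, and the exception was Rab6b with ERCC scaling. Most of these settings could hardly have done otherwise. They cover the 15 highest members, whose log2 differences were at most 0.13 in size (Rab10). ERCC scaling also moved small negative differences above 0, such as Rab7 from -0.096 to 0.019. Counts without length turned the ratio of Rab11a over Rab11b to a log2 of -0.21 and that of Rab22a over Rab31 to 0.12. Rab22a over Rab31 was 0.062 in replicate 2 alone and -0.13 in replicate 1 alone, and Rab21 over Rab22a was -0.38 in replicate 2 alone and 0.10 in replicate 1 alone. The cause was not tested. The number detected stayed between 37 (at 5 TPM) and 52 (at 0.5 TPM). The number of pairs at least 2-fold apart (14 in both libraries) was 14 in replicate 2 alone and 15 in replicate 1 alone, where Rab5c over Rab5b was added. Depth limits members under about 100 counts, where leading transcripts and folds rest on few reads.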
